A study of Homo sapiens with 6 samples.

Results

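The activin, follistatin and TGF-beta genes were 10 genes chosen by name, namely INHBA, INHBB, FST, FSTL3, ACVR1, ACVR2A, TGFB1, TGFB2, TGFBR1 and TGFBR2, out of 23002 genes in the table. All 10 were found there by their symbol. RNA sequencing covered 6 samples of U251, an established human glioblastoma line, of which 3 carried a non-targeting control hairpin (sh-NC) and 3 a hairpin against TRAF2 (sh-TRAF2). TRAF2 is an adaptor protein that binds receptors of the tumor necrosis factor family, and the comparison asked which transcripts differed once it was lowered. Knockdown lines in the study were stable lines selected with puromycin from vectors that also carry EGFP and a puromycin resistance gene. Neither the number of lines or clones per group nor the hairpin used for sequencing is given in the sources used here, so the p-values measure only the spread between these samples, which may be technical.

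Activins and TGF-betas are secreted dimers of related chains that act on pairs of receptor kinases at the cell surface. A type II receptor binds the ligand and phosphorylates a type I receptor, which in turn phosphorylates SMAD proteins that move to the nucleus and regulate transcription. INHBA and INHBB encode the beta A and beta B chains of activin, and follistatin (FST) and follistatin-like 3 (FSTL3) bind activin outside the cell and block it. ACVR2A is a type II receptor for activin, ACVR1 a type I receptor used mostly by bone morphogenetic proteins (BMPs), and TGFBR2 and TGFBR1 are the type II and type I receptors for TGF-beta. In glioblastoma, TGF-beta is known as a factor that promotes invasion and restrains immune cells.

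The hairpins come first, since the study lists a pair of them against TRAF2. Their target sequences are printed below because part of one of them also occurs in 2 of the 10 genes. Capitals mark the 7 bases ATTCCAC, bases 10 to 16 of the first target, which an earlier scan of these same data had singled out.
sh-TRAF2#1: cccttgcagATTCCACgccat
sh-TRAF2#2: ctggaccaagacaagattgaa

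ATTCCAC was found in the longest 3′UTR of FSTL3 and of TGFBR2 among the 10 genes (GENCODE 29, GRCh38). In FSTL3 it lay at bases 289 to 295 of a 3′UTR of 1691 bases, within chr19:681986-682014 on the plus strand. In TGFBR2 it lay at bases 2052 to 2058 of 2543, within chr3:30693640-30693668 on the plus strand. The matching bases are in capitals.
FSTL3: tgccggggaggATTCCACacttccgctcc
TGFBR2: ggcgcctagaaATTCCACttgcaccgtag
The same 7 bases were in the longest 3′UTR of 11.6% of the 10606 tested genes that had one. They were in 18.8% of the genes that were lower in sh-TRAF2 and in 6.89% of those that were higher. Because the 7 bases had been singled out from these same data, these shares depend on that choice and are a description only. Neither carrier was lower here, since TGFBR2 rose and FSTL3 was not called, and the 3′UTRs of INHBA, ACVR1, ACVR2A, TGFB2 and TGFBR1, which did change, did not contain it. Whether the hairpin acted on any of these transcripts was not tested.

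The promoters of INHBA and TGFBR2 are shown because these were the 2 genes that rose and the RefSeq starts used lay at or close to a transcript start in GENCODE 29. Each runs from 250 bases before a start listed by RefSeq to 50 after it (GRCh38.p14). Both starts lie inside the outer bounds of the gene in GENCODE that are given with the values, since other transcripts begin further upstream. The INHBA promoter is chr7:41703041-41703340 on the minus strand, and the capitals mark a SMAD box, CAGACA, that begins 27 bases after the start.
INHBA: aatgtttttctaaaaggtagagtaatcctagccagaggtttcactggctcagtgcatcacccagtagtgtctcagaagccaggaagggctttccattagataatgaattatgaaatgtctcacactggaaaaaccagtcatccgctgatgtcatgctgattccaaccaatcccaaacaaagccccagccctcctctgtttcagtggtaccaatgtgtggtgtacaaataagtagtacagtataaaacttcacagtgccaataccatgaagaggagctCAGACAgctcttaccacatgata
The TGFBR2 promoter is the second of 2 listed for that gene, chr3:30606351-30606650 on the plus strand. Its capitals mark an AP-1 motif, TGANTCA, that begins 6 bases before the start.
TGFBR2: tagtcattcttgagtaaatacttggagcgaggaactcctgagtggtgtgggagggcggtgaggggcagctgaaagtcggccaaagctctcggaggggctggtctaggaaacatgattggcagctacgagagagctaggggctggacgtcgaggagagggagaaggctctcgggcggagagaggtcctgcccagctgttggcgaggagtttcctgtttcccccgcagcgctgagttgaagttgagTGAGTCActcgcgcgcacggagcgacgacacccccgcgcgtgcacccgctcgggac
Searched on both strands, the SMAD box (CAGACA, or TGTCTG on the other strand) was in 16.9% of 34943 promoters of this length. AP-1 (TGANTCA, which reads alike on both strands) was in 7.72% and the cyclic AMP response element (TGACGTCA) in 1.84%. The start of the TGFB2 promoter and that of 1 ACVR1 promoter lay upstream of all GENCODE 29 transcripts of the gene, so their matches are less certain. Over all 20 promoters of the 10 genes, AP-1 was also found in those of FST and ACVR1, the SMAD box also in those of ACVR1, TGFB2 and TGFBR1, and the cyclic AMP response element in none. The SMAD box was thus found in genes that rose and in genes that fell, and AP-1 also in FST, which was not called, so these matches describe the letters only.

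Values are FPKM, counts of fragments scaled for gene length and sequencing depth, so levels of different genes can be set side by side. The test was limma on log2(FPKM + 0.1) for 11870 genes whose mean reached 0.5 FPKM, with standard errors (SE) from that fit and adjusted p-values by Benjamini-Hochberg over all 11870. Fold changes on that scale understate the change of low genes. The reads behind the values came to between 33999558 and 36823562 per sample. The mean of TRAF2 itself was 16.3 ± 1.84 FPKM in sh-NC and 3.27 ± 0.054 in sh-TRAF2 (SD, n = 3), and its log2 fold change was -2.27 (limma, SE 0.079, adjusted p = 1.16e-06). Of the glioma markers, VIM, CD44, SOX2, SOX9, SLC1A3 and NES had a mean of at least 1 FPKM, while S100B and OLIG2 stayed at or under 0.113 in every sample. GFAP and FABP7 were low, with means of 0.467 and 0.627 FPKM in sh-NC and 1.18 and 0.907 in sh-TRAF2. AQP4, also on that list, was not analysed here. The mean of NES was 5.35 FPKM in sh-NC and 11.7 in sh-TRAF2. The immune marker PTPRC, the endothelial marker PECAM1 and the summed epithelial markers were at most 0.0245, and of those lists only CD68 (immune) and KDR (endothelial) had a mean of at least 1. The 4 neuronal markers summed to 52.1 to 62.1 in sh-NC and 36.3 to 40.4 in sh-TRAF2, of which SYT1 and NEFL made up nearly all and RBFOX3 reached only 0.00301, and their part in the results was not tested.

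After TRAF2 knockdown the activin chain INHBA rose 2.45-fold and the TGF-beta receptor TGFBR2 rose 1.5-fold, while TGFB2 fell by 23.9%, ACVR1 fell by 23.6%, ACVR2A fell by 18.7% and TGFBR1 fell by 13.8%. FST, FSTL3 and TGFB1 were not called, and INHBB was too low to test. Of the 9 tested genes, 2 were thus higher at an adjusted p under 0.05, against 23.7% of all tested genes, and 4 were lower, against 20.9%. INHBA was the only one of the 9 to pass both that threshold and a log2 fold change above 1, as 0.986% of all tested genes did. The sh-NC and sh-TRAF2 samples did not overlap in 6 of the 9, against 55.5% of all tested genes. The median log2 fold change of the 9 was 0.06, and that of all tested genes 0.02. In such bulk samples, a change in the share of cells that express a gene and a change in its RNA per cell cannot be told apart.

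**Figure D1:**
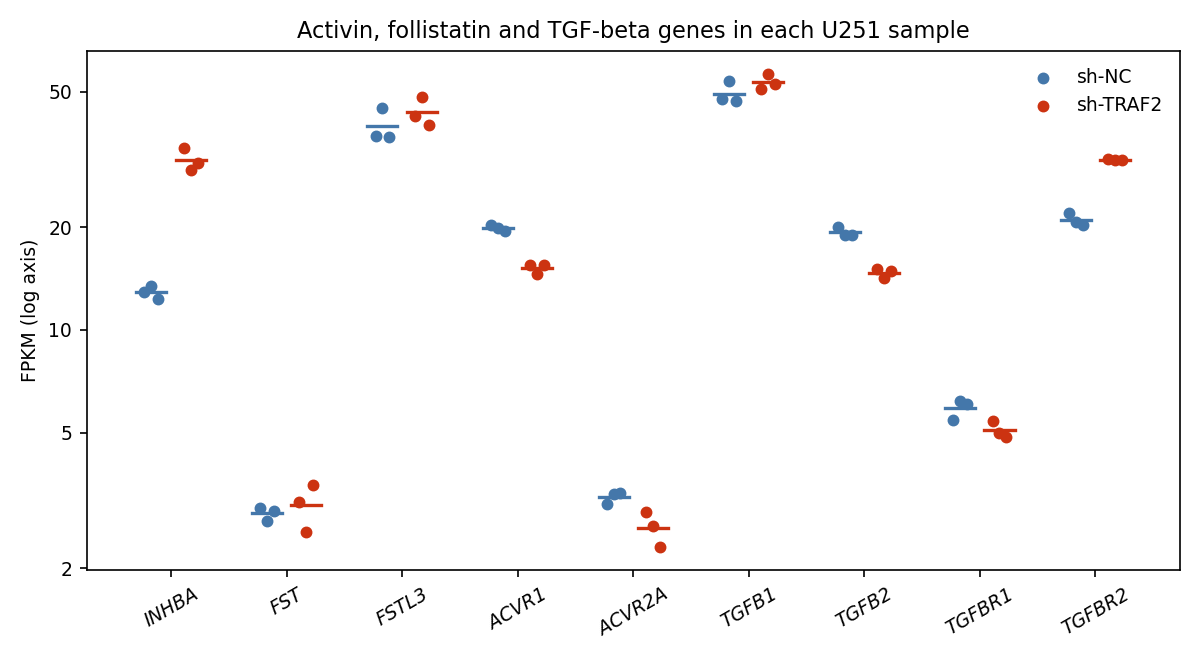
FPKM (log axis) of 9 of the 10 genes in each U251 sample, with sh-NC in blue, sh-TRAF2 in red and the mean of 3 samples as a line. INHBB, with at most 0.0358 FPKM, is not drawn. The groups stand apart for INHBA and TGFBR2 (sh-TRAF2 above) and for ACVR1, ACVR2A, TGFB2 and TGFBR1 (sh-TRAF2 below), and they overlap for FST, FSTL3 and TGFB1.

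INHBA, on chromosome 7 (GRCh38, chr7:41667168-41705834, minus strand), changed most. It was measured at 12.9, 13.4 and 12.3 FPKM in the sh-NC samples, given here and throughout in the order of replicates 1, 2 and 3. The sh-TRAF2 samples had 34.2, 29.5 and 30.9 FPKM. Every sh-TRAF2 sample thus lay above every sh-NC sample, and the lowest of them was over the highest control by more than the whole range within either group. The means were 12.9 ± 0.55 and 31.6 ± 2.39 FPKM (SD, n = 3), and the log2 fold change was 1.28 (limma, SE 0.062, 95% interval 1.14 to 1.42, adjusted p = 4.41e-06). A two-sided exact permutation test over the samples gave p = 0.1, the smallest that 3 samples against 3 allow. INHBA ranked 44 of 11870 from the highest log2 fold change. The value rests on 3715 to 3895 reads per sh-NC sample and 8224 to 9655 per sh-TRAF2 sample, and it stayed between 1.22 and 1.33 over the 15 alternatives, with an adjusted p under 0.05 in all 15.

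INHBB, which encodes the other common activin chain, was all but undetected. It had 1, 0 and 0 reads in sh-NC and 4, 0 and 0 reads in sh-TRAF2, or at most 0.0358 FPKM, where 1 and 4 are the smallest whole numbers that give these values. It was under the minimum for the test, and no fold change is given from so few reads. Among the remaining inhibin and activin chains, INHA and INHBC reached at most 0.0597 and 0.0336 FPKM in any sample, and INHBE, a chain best known from liver, was measured at 6.36, 6.09 and 7.6 FPKM in sh-NC and 3.51, 5.15 and 3.56 in sh-TRAF2. INHBE fell with no overlap of the groups, by 0.72 on the log2 scale (limma, SE 0.149, adjusted p = 0.00529). INHBA made up 66.9%, 68.7% and 61.6% of the summed FPKM of these 5 chains in sh-NC, and 90.5%, 85.1% and 89.6% in sh-TRAF2. This share was computed after the values were seen and is given as a description.

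The activin-binding proteins were not called. FST (chr5:53480409-53487134, plus strand) was at 3, 2.76 and 2.95 FPKM in sh-NC and 3.13, 2.55 and 3.5 in sh-TRAF2. The sh-TRAF2 samples held both its lowest and its highest value. Its log2 fold change was 0.06 (limma, SE 0.113, 95% interval -0.20 to 0.32, adjusted p = 0.677), and the exact permutation test gave p = 0.7. Its direction rested on 1 sample, since the log2 fold change was -0.038 when sh-TRAF2 replicate 3 was left out and 0.18 when sh-TRAF2 replicate 2 was.

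FSTL3 (chr19:676365-683399, plus strand) was far more abundant than FST, whose FPKM was 0.0741 ± 0.0108 of that of FSTL3 in sh-NC and 0.0713 ± 0.0175 of it in sh-TRAF2 (SD, n = 3). It was at 37.1, 44.8 and 36.9 FPKM in sh-NC and 42.6, 48.2 and 39.9 in sh-TRAF2, so that the control replicate 2 lay above 2 of the 3 knockdown samples. On the log2 scale FSTL3 differed by 0.14 (limma, SE 0.09, 95% interval -0.07 to 0.34, adjusted p = 0.242). It reached an adjusted p of 0.042 without sh-NC replicate 2, where it was 0.23, and was 0.09 without sh-NC replicate 3 and 0.06 without sh-TRAF2 replicate 2, with adjusted p-values of 0.501 and 0.608. FSTL3 made up between 91.9% and 95% of the summed FPKM of FST and FSTL3 in all 6 samples. Set against that sum, INHBA stood at 0.322, 0.282 and 0.309 in sh-NC and at 0.748, 0.582 and 0.712 in sh-TRAF2, a description also computed after the values were seen.

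The TGF-beta chains did not move together. TGFB2 (chr1:218346235-218444619, plus strand) was at 20, 19.0 and 19.0 FPKM in sh-NC and at 15.1, 14.2 and 14.9 in sh-TRAF2. All 3 knockdown samples lay below all 3 controls, and TGFB2 fell by 23.9% in the mean (19.4 ± 0.557 to 14.7 ± 0.486 FPKM, SD, n = 3). The log2 fold change was -0.39 (limma, SE 0.046, 95% interval -0.50 to -0.29, adjusted p = 0.000297), and it was called under all 15 alternatives. Exons of TGFB2 overlap TGFB2-OT1 on the same strand, so reads there cannot be assigned with certainty.

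TGFB1 (chr19:41301587-41353911, minus strand) was the most abundant of the 10 genes. It was at 47.5, 53.9 and 46.8 FPKM in sh-NC and 51, 56.2 and 52.6 in sh-TRAF2, with sh-NC replicate 2 above 2 of the knockdown samples. The log2 fold change of 0.11 (limma, SE 0.062, 95% interval -0.03 to 0.25, adjusted p = 0.183) was not called. Without sh-NC replicate 2 it was 0.17 and called (adjusted p = 0.0255), and it was 0.07 without sh-NC replicate 3 and without sh-TRAF2 replicate 2. Exons of TGFB1 overlap HNRNPUL1 on the opposite strand. HNRNPUL1 was at 91.2 to 96.4 FPKM in sh-NC and 82.9 to 88.5 in sh-TRAF2, and without knowledge of the strand used in counting its reads and those of TGFB1 cannot be told apart in the overlap.

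The activin and BMP receptors ACVR1 and ACVR2A both fell. ACVR1 (chr2:157736444-157875862, minus strand) was at 20.3, 19.9 and 19.6 FPKM in sh-NC and 15.5, 14.6 and 15.5 in sh-TRAF2. Its groups stood well apart, and it fell by 23.6% in the mean (19.9 ± 0.372 to 15.2 ± 0.498 FPKM, SD, n = 3). The log2 fold change was -0.39 (limma, SE 0.044, 95% interval -0.49 to -0.29, adjusted p = 0.000258) and was called under all 15 alternatives. ACVR2A (chr2:147844517-147930826, plus strand) was lower in level, at 3.09, 3.3 and 3.33 FPKM in sh-NC and 2.92, 2.66 and 2.32 in sh-TRAF2. The highest knockdown sample was only just under the lowest control. Its log2 fold change was -0.29 (limma, SE 0.095, 95% interval -0.51 to -0.08, adjusted p = 0.034). The direction held under all 15 alternatives but the call under 8, and the adjusted p lay between 0.0537 and 0.103 without sh-NC replicate 1, 2 or 3 or sh-TRAF2 replicate 2 or 3. Exons of ACVR2A overlap ORC4 on the opposite strand, which was at 6.54 to 7.29 FPKM in sh-NC and 6.51 to 6.95 in sh-TRAF2.

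The TGF-beta receptors went in opposite directions. TGFBR2 (chr3:30606502-30694142, plus strand) was at 22, 20.8 and 20.4 FPKM in sh-NC and 31.8, 31.5 and 31.6 in sh-TRAF2. The knockdown samples lay close together and all above the controls, with means of 21.1 ± 0.861 and 31.6 ± 0.153 FPKM (SD, n = 3). TGFBR2 had a log2 fold change of 0.58 (limma, SE 0.043, 95% interval 0.49 to 0.68, adjusted p = 3.12e-05), and the gene was called under all 15 alternatives. TGFBR1 (chr9:99104038-99154192, plus strand) was at 5.46, 6.18 and 6.08 FPKM in sh-NC and 5.41, 5 and 4.86 in sh-TRAF2. Its groups were separated by the narrow gap between sh-NC replicate 1 and sh-TRAF2 replicate 1. For TGFBR1 it was -0.21 (limma, SE 0.071, 95% interval -0.37 to -0.05, adjusted p = 0.0421). This call held under 8 of the 15 alternatives, with an adjusted p of 0.105 to 0.128 without sh-NC replicate 2 or 3 or sh-TRAF2 replicate 2 or 3.

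**Figure D2:**
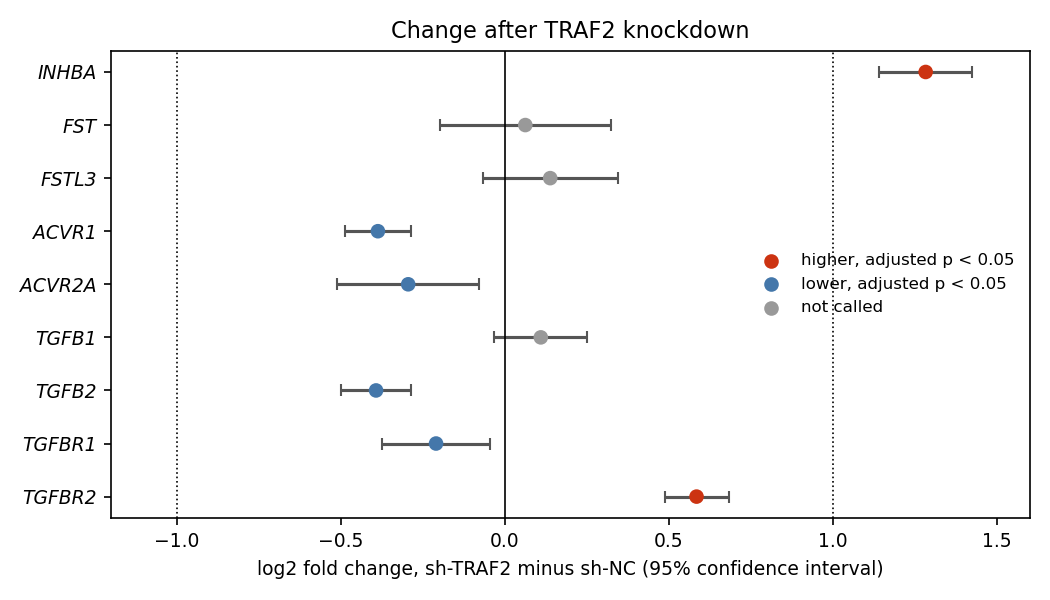
Log2 fold change (sh-TRAF2 minus sh-NC) of the 9 tested genes on the log2(FPKM + 0.1) scale, with 95% intervals from limma. Red marks genes that were higher, blue genes that were lower and grey genes that were not called, and dotted lines stand at a log2 fold change of 1 in either direction. INHBA at 1.28 is the only gene beyond a dotted line, TGFBR2 follows at 0.58, and the intervals of FST, FSTL3 and TGFB1 include 0.

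In order of level, the 10 genes in sh-NC ran from TGFB1 through FSTL3, TGFBR2, ACVR1, TGFB2, INHBA, TGFBR1, ACVR2A and FST to INHBB. Only ACVR1 and TGFB2 overlapped as neighbours in that order. In sh-TRAF2, INHBA had moved up past ACVR1 and TGFB2 and overlapped TGFBR2 above it (means of 31.6 FPKM for both). ACVR1 and TGFB2 again overlapped, and FST and ACVR2A, which had been separate, now overlapped too.

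Ratios within a sample do not depend on how the samples are scaled, and 6 pairs were set for comparison, of which INHBA to INHBB gave no ratio because INHBB was at 0 in 4 samples. The ratio of INHBA to FST, the scarcer of the activin-binding proteins FST and FSTL3, was 4.32, 4.86 and 4.18 in sh-NC. It was 10.9, 11.6 and 8.83 in sh-TRAF2, a 2.34-fold difference with no overlap. The sum of FST and FSTL3 exceeded INHBA in every sample, as given above. TGFB1 to TGFB2 went from 2.55 ± 0.244 to 3.62 ± 0.307 (SD, n = 3), 1.42-fold higher. TGFBR1 to TGFBR2 went from 0.281 ± 0.029 to 0.161 ± 0.00844 (SD, n = 3), 1.74-fold lower. These 3 ratios differed between the groups with no overlap, and each had p = 0.1 by the two-sided exact permutation test, the smallest that 3 against 3 allow, and 0.167 after Benjamini-Hochberg adjustment over the 5 ratios. The ratios of FST to FSTL3 and of ACVR1 to ACVR2A overlapped, with differences of -0.07 and -0.08 on the log2 scale and exact permutation p-values of 0.7 and 0.6 (0.7 adjusted for both). The sign of FST to FSTL3 turned to 0.13 without sh-TRAF2 replicate 2.

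**Figure D3:**
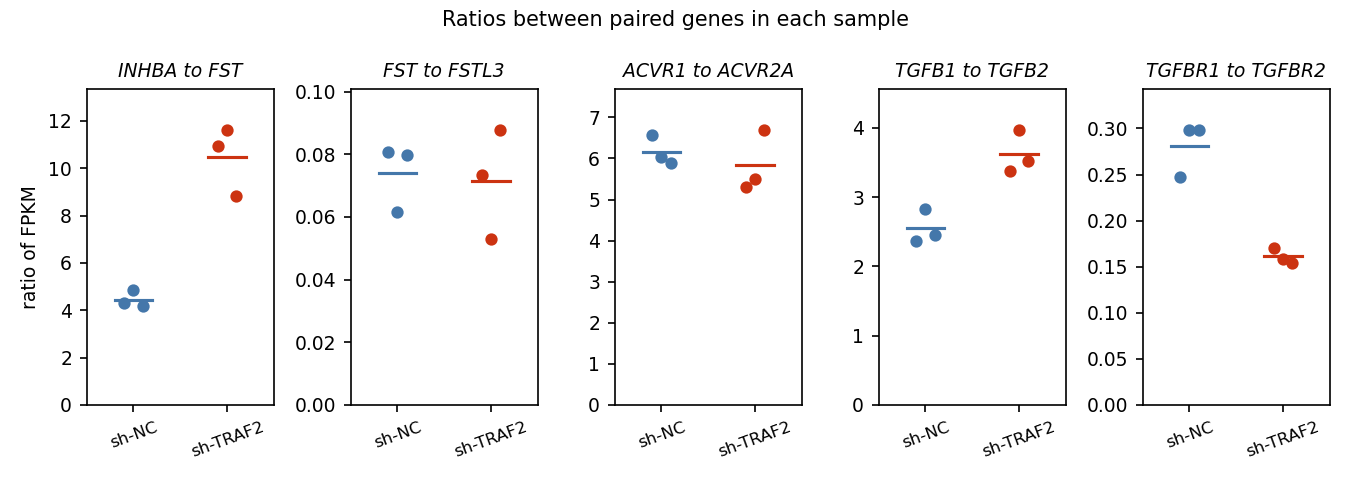
Ratio of the FPKM of 2 genes within each sample, 1 panel per pair, with sh-NC in blue, sh-TRAF2 in red and the mean of 3 samples as a line. All axes start at 0. The sh-TRAF2 samples lie above the sh-NC samples for INHBA to FST (8.83 to 11.6 against 4.18 to 4.86) and for TGFB1 to TGFB2, below them for TGFBR1 to TGFBR2, and on both sides of them or among them for FST to FSTL3 and ACVR1 to ACVR2A, whose ranges overlap.

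The rest of the pathway was read from 6 lists, which together held 107 genes apart from the 10. Of these, 96 were in the table and 60 were tested. At an adjusted p under 0.05, 10 of the 60 were higher and 20 were lower, against 23.7% and 20.9% of all tested genes, and the median log2 fold change of the 60 was -0.14. The counts that follow for each list stand against those same shares. Among the other ligands 7 of 28 were tested, of which 0 were higher and 3 were lower (limma-voom on the reads also gave 0 higher, and 1 was higher at an unadjusted p under 0.05). These 3 were INHBE, AMH (anti-Mullerian hormone) and GDF15, a stress-induced ligand. AMH was at 2.34, 3.57 and 2.87 FPKM in sh-NC and 1.4, 1.61 and 2.11 in sh-TRAF2, and fell by 0.74 on the log2 scale (limma, SE 0.18, adjusted p = 0.0104). GDF15 had a mean of 319 ± 56.4 and 247 ± 29.6 FPKM (SD, n = 3), its groups overlapped, and its adjusted p of 0.0432 stayed under 0.05 in 9 of the 15 alternatives, with a log2 fold change of -0.36 that became -0.23 without sh-NC replicate 3. Ligands with a mean under the minimum included NODAL, MSTN, BMP2 and BMP7.

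Other receptors and co-receptors were not called, with 0 of 7 tested genes higher and 0 lower, and log2 fold changes from -0.28 for the co-receptor TGFBR3 to -0.02 for ACVR1B, the type I receptor for activin. ACVR1B was at 3.15, 2.79 and 2.8 FPKM in sh-NC and 3.08, 2.69 and 2.85 in sh-TRAF2 (adjusted p = 0.876, limma). BAMBI, a decoy receptor that lacks the kinase, came nearest to the threshold, with a mean of 38.9 ± 2.56 against 35 ± 1.09 FPKM (SD, n = 3, adjusted p = 0.0532, limma). It was called under 5 of the 15 alternatives, among them limma-voom on the reads, and was the 1 receptor with an unadjusted p under 0.05.

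Among other extracellular inhibitors and latency proteins, 1 of 9 tested genes was higher and 3 were lower, against 23.7% and 20.9% of all tested genes. The gene that rose was THBS1 (thrombospondin 1), a matrix protein known to release TGF-beta from its latent form, at 56.3, 57 and 51.9 FPKM in sh-NC and 92.4, 90.9 and 94.8 in sh-TRAF2. Its log2 fold change was 0.75 (limma, SE 0.044, adjusted p = 1.02e-05). LTBP3 and LTBP4, which hold latent TGF-beta in the matrix, fell by 0.62 and 0.23 on the log2 scale (limma, adjusted p = 0.003 and 0.0278), the call of LTBP4 holding under 11 of the 15 alternatives. FSTL1, a secreted relative of follistatin, fell by 0.52 on the log2 scale, from 25.1 ± 0.137 to 17.4 ± 0.346 FPKM (SD, n = 3, adjusted p = 3.4e-05, limma).

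Of the SMAD transduction genes, 5 of 18 tested were higher and 7 were lower, and the share that was higher was near the 23.7% of all tested genes (20.9% were lower). SKI, a nuclear repressor of SMAD-driven transcription, was at 9, 9.66 and 9.33 FPKM in sh-NC and 5.43, 5.5 and 5.25 in sh-TRAF2, and fell by 0.78 on the log2 scale (limma, SE 0.053, adjusted p = 2.3e-05). The repressor TGIF1 fell by 0.28 and its relative TGIF2 rose by 0.66. Both SMURF2 (log2 fold change 0.37) and SMURF1 (0.18), ubiquitin ligases that act on SMADs and receptors, rose, but SMURF1 was called under only 8 of the 15 alternatives. Of the SMADs, SMAD3, which carries activin and TGF-beta signals, rose by 0.22, while SMAD1 and SMAD5, which carry BMP signals, fell by 0.33 and 0.15, and the inhibitory SMAD6 and SMAD7 fell by 0.75 and 0.31. The call held under 14 of the 15 alternatives for SMAD3, 11 for SMAD1 and 8 for SMAD5, and under all 15 for SMAD6 and SMAD7. SMAD2 and SMAD4 were not called (log2 fold changes of -0.14 and -0.10). SMAD6 is a low gene, at 2.08 and 1.21 FPKM in the mean, and its log2 fold change was -0.48 with a pseudocount of 1.

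Of the known target genes of TGF-beta and activin, 5 of 16 tested were higher and 5 were lower, against 23.7% and 20.9% of all tested genes. TAGLN (transgelin), an actin-binding protein of contractile cells, was at 0.679, 0.794 and 0.707 FPKM in sh-NC and 1.44, 1.89 and 1.65 in sh-TRAF2. It had a log2 fold change of 1.09 (limma, SE 0.137, adjusted p = 0.000414), which became 0.62 with a pseudocount of 1. CCN2, KLF10, ACTA2 and SKIL rose by 0.49, 0.40, 0.35 and 0.16 on the log2 scale. TGFBI, a matrix protein named for its induction by TGF-beta, was at 326, 322 and 342 FPKM in sh-NC and 180, 178 and 194 in sh-TRAF2, and fell by 0.84 on the log2 scale (limma, SE 0.041, adjusted p = 4.41e-06). SNAI2, SMAD7 and CDKN1A fell by 0.44, 0.31 and 0.15. The call held under 13 of the 15 alternatives for ACTA2, 11 for SKIL and 9 for CDKN1A. Of the 8 BMP target genes, 0 were higher and 4 were lower (also 0 higher by limma-voom and at an unadjusted p under 0.05), against 23.7% and 20.9% of all tested genes, with a median log2 fold change of -0.27. These were ID2, ID3, ID4 and SMAD6. The call of ID2 (log2 fold change -0.43) held under 11 of the 15 alternatives, and leaving out sh-NC replicate 3 gave -0.28, which was not called. ID4 was at 6.62, 6.99 and 8 FPKM in sh-NC and 4.98, 5.05 and 5.27 in sh-TRAF2 (log2 fold change -0.49, adjusted p = 0.00132, limma).

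**Figure D4:**
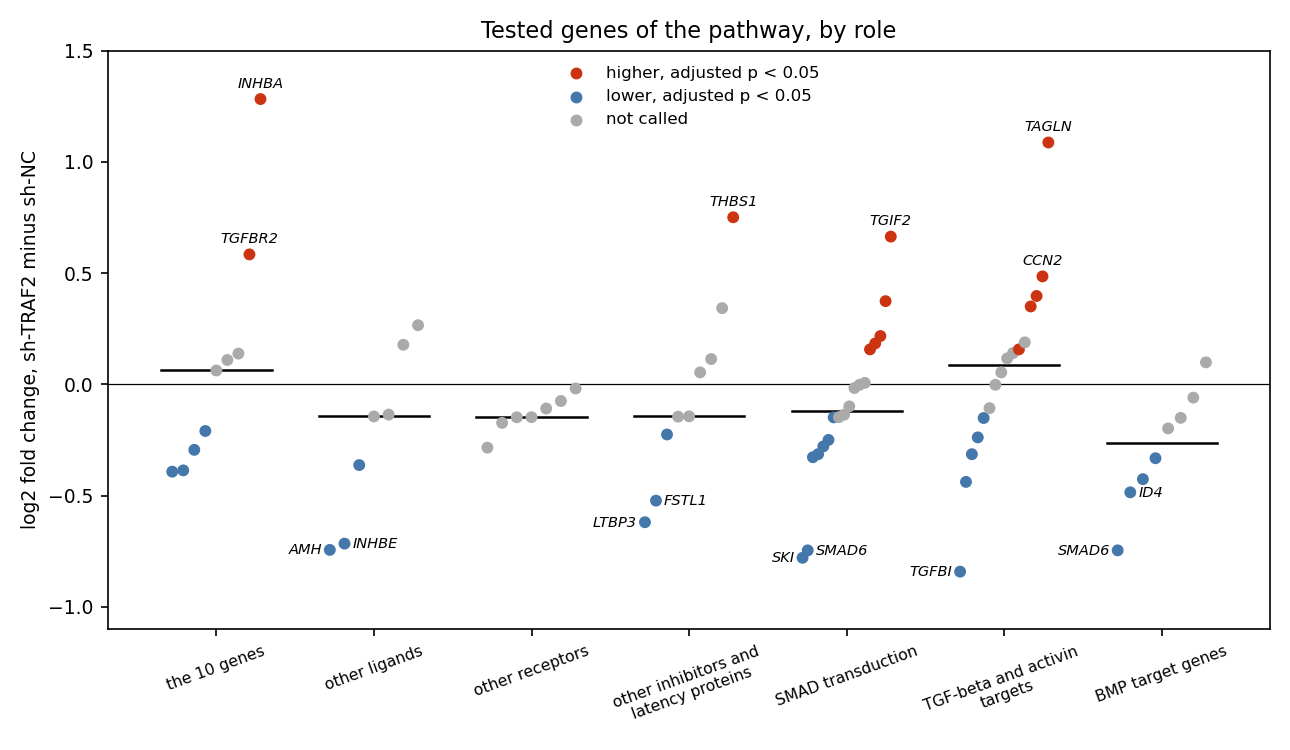
Log2 fold change (sh-TRAF2 minus sh-NC) of the tested genes of each list, with 1 point per gene, red for higher, blue for lower and grey for not called, and a line at the median of each list. The horizontal spread within a list is only the order of the values. SMAD6, SMAD7, SKIL, PMEPA1 and LTBP2 are in 2 lists each. INHBA at 1.28 and TAGLN at 1.09 are the only points above 1, and no receptor outside the 10 genes is coloured.

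The genes with the most similar profile over the 6 samples were sought for the 3 genes with the largest changes, by the distance between log2 values centred on their mean. For INHBA they were S1PR1, a receptor for sphingosine 1-phosphate (distance 0.116), the long non-coding RNA MELTF-AS1 (0.145) and IER3IP1 (0.191), against a median distance of 1.58 over all tested genes. For TGFBR2 they were IPO11 (0.0476), CDK2 (0.0752) and SF3B2 (0.0791), against a median of 0.76. For TGFB2 the nearest was ACVR1 (0.0313), itself one of the 10 genes, followed by PAWR (0.0381) and PABIR2 (0.055), against a median of 0.583. The profile of 6 samples in 2 groups is set mostly by the difference between the groups, so these genes share little more than its size.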

How the data were processed

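Library preparation, sequencing and read processing were done by OE Biotech. The authors deposited 1 table of FPKM for 23002 genes and 6 samples. The submitters' processing notes name HISAT2, HTSeq, R 3.2.0 and DESeq2, and the genome build, annotation and use of strand behind the table are not given in the sources used here. Here the fit of sh-TRAF2 against sh-NC was made with limma 3.58.1 in R 4.3.3 (lmFit, eBayes with a trend, two-sided) on log2(FPKM + 0.1), leaving out genes whose mean was under 0.5, with Benjamini-Hochberg adjustment over the 11870 left. A pseudocount pulls low genes towards 0. Within a gene the values are whole multiples of 1 read's worth, from which reads were recovered for all 23002 genes (within 1e-06 of a whole number). For 2643 genes above 0 in 1 sample only, the lowest possible number was taken. On simulated data 98.4% of 1750 genes were recovered exactly. In another simulation, 200 of 11870 genes were given changes larger than 1 on the log2 scale, in either direction. A call there needed both an adjusted p under 0.05 and an absolute log2 fold change above 1. The fit called 98.5% of the changed genes, with 2 unchanged genes called. Smaller changes and calls by adjusted p alone were not simulated. Replicates of a group differed by more than counting noise (chi-square per gene 5.01 to 12.2, against 46.6 to 61.6 between groups).

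The 10 genes, the lists and the alternatives were chosen with earlier results of these data known. Named were TRAF2, the 10 genes, the 3 genes of each list with the smallest adjusted p, any past both thresholds, and the 3 nearest profiles for each of the 3 largest changes. Other genes named were chosen after their values were seen. GDF1, GDF3, GDF5, GDF10, BMP15, WFIKKN2, CHRDL2, SOSTDC1, CER1, DCN and CDKN2B were not analysed here. The values of 1 list gene are not reported here. There were 15 alternatives, namely other pseudocounts (1 and 0.01), other filters (none, or at least 1 FPKM in the mean), other scalings (TPM and quantile), a term for the replicate number, eBayes with no trend, limma-voom on recovered reads with at least 10 in the mean, and the omission of each of the 6 samples. Positions and 3′UTRs came from GENCODE 29 (GRCh38), where 89.4% of tested genes had a 3′UTR, and promoters from RefSeq (GRCh38.p14), where all 10 genes matched. The other software was Python 3.11.15 with numpy 2.4.6, pandas 2.3.3 and scipy 1.17.1, and matplotlib 3.10.9 for plots.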

Additional observations from a re-analysis of the deposited data

How the results depend on the processing

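INHBA, TGFBR2, ACVR1 and TGFB2 kept their direction and their call under all 15 alternatives, while ACVR2A and TGFBR1 kept their direction but not their call. Of the 9 tested genes, 4 were lower in the fit reported, 2 with no filter on low values and 2 to 4 with 1 sample left out. Between 2 and 4 were higher with 1 sample left out, the 4 being without sh-NC replicate 2, where FSTL3 and TGFB1 were added. The cause was not tested, other than that more genes are tested with no filter and fewer samples enter a fit without 1 of them. List genes called lower numbered 20, against 12 with no filter and 13 to 19 with 1 sample left out. They numbered 21 with the filter at 1 FPKM and 22 with TPM, quantile scaling or the replicate block. List genes called higher numbered 10, against 7 to 10 with 1 sample left out and 11 with the filter at 1 FPKM or the replicate block. Over all genes, 117 were higher and 87 lower past both thresholds, against 46 and 41 with a pseudocount of 1, which shrinks low genes, 231 and 181 with limma-voom on recovered reads, and 95 to 163 and 79 to 95 with 1 sample left out. At an adjusted p under 0.05 alone, leaving out 1 sample gave 2206 to 2729 higher and 1956 to 2327 lower. FST changed sign without sh-TRAF2 replicate 3 (log2 fold change -0.038, range with 1 sample left out -0.038 to 0.18), and so did FST to FSTL3 without sh-TRAF2 replicate 2 (0.13, range with 1 sample left out -0.24 to 0.13). Same-numbered samples had deviations that correlated at -0.081, 0.072 and 0.073 over all tested genes. These values, of both signs, show no consistent pairing over all genes, and pairing in single genes was not tested. At an adjusted p under 0.05 the replicate block gave 2912 genes higher and 2539 lower, against 2818 and 2479 without it. With the replicate block, FSTL3 was called (log2 fold change 0.14, limma, adjusted p = 0.0257) and TGFBR1 was not (-0.21, adjusted p = 0.068). TGFB1 stayed just over the threshold with that block (log2 fold change 0.11, limma, adjusted p = 0.0512). In each group, both FSTL3 and TGFB1 had their highest value in replicate 2. The median log2 fold change of all genes stayed between -0.00 and 0.03. INHBB, tested only with no filter on low values, had too few reads to show a difference at this depth (adjusted p = 0.634 from limma), and ratios could not reach p under 0.1.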
